A study of Homo sapiens with 12 samples.

Results

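Untreated PC-3 cells were compared with untreated DU 145 cells, 2 established human prostate cancer lines that do not depend on androgen. The comparison used the 6 control samples of the 12 in the series, chosen by their labels as 3 PC-3 and 3 DU 145 samples, and no sample that had received MS13, the curcumin-like compound of the wider study. The PC-3 line is labelled as a grade IV adenocarcinoma from a bone metastasis and was grown in F-12K medium. The DU 145 line is labelled as a carcinoma from a brain metastasis and was grown in EMEM. Controls of both lines had medium with DMSO, the solvent of the compound, for the length of the treatment. Line and culture medium changed together in every sample, so their parts in a difference cannot be told apart.

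Total RNA was counted with the nCounter PanCancer Pathway panel, in which each of 770 genes has a barcoded probe that is counted directly, without amplification. Spiked-in positive and negative probes run in the same tube. A normalized count below is the count of a gene scaled by the geometric mean of the 40 housekeeping genes of the panel. The background limit is the mean of the 8 negative probes plus 2 SD, which came to 27.3 normalized counts in PC-3 and 26.5 in DU 145. Probes capture their targets with different efficiency, so values are set side by side between the lines and never between genes.

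PC-3 and DU 145 are epithelial lines from metastases and have long served as a pair of models for advanced prostate cancer. Most prostate tumours grow on androgen signals, whereas lines of this kind divide without them and draw on growth factor, RAS-MAPK, PI3K and cytokine signalling. As background, DU 145 is known for a defect in the retinoblastoma protein RB1. The panel measures RNA, so it does not report on the function of a mutant protein.

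Panel totals were 543954 to 587294 counts in the 3 PC-3 samples and 482298 to 560157 in the 3 DU 145 samples. PC-3 replicates 2 and 3 agreed within sampling noise (chi-square per degree of freedom 1.04, against 1.23 to 1.39 for the other 5 pairs of replicates) and were summed and counted as 1 sample, leaving n = 2 for PC-3 and n = 3 for DU 145. The series names both biological replicates and technical repeats and does not tie them to separate cultures, so p-values measure only the spread between these samples, which may be technical. The housekeeping mean divided by the mean of the positive probes was 0.1411 to 0.1478 in PC-3 and 0.1497 to 0.1553 in DU 145. These ranges did not overlap, and scaling by the positive probes in place of the housekeeping genes moved the log2 differences by -0.09.

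The labels were first set against marker genes. All 8 epithelial markers on the panel were above the limit in both lines, among them the adhesion protein E-cadherin, CDH1, at 1003 and 1010 in PC-3 and 339, 357 and 397 in DU 145. TMPRSS2, a serine protease of luminal prostate epithelium that androgen induces, had 384 and 377 normalized counts in PC-3 and 7.36, 12 and 11.5 in DU 145. It was therefore read above the limit only in the line from bone, at least 14.3-fold higher there. Of the neuroendocrine markers only DLL3 passed the limit, at 81.3 ± 3.65 (SD, n = 2) in PC-3 and 81.4 ± 2.09 (SD, n = 3) in DU 145. Markers of other cells were mostly at background: the monocyte gene CD14 had 11.1 ± 0.498 in PC-3 and 13.3 ± 2.64 in DU 145. Summed over 14 leukocyte markers the level was still 772 to 820 in PC-3 and 404 to 443 in DU 145, and over 9 stromal markers 1050 to 1080 in PC-3 and 120 to 146 in DU 145. Of 12 leukocyte markers tested, 3 were higher in PC-3 at an adjusted p of at most 0.05, RAC2, IL7R and JAK3, and 5 were lower, a median log2 difference of -0.13. Together this is near the share of all genes tested that passed this cut in either direction, 67.4%. CD40 fell 2.03-fold, at 84.5 ± 8.22 in PC-3 and 171 ± 9.39 in DU 145. It was no longer a DEG when the 10 most stable housekeeping genes set the scale. PRKCB, PLCG2 and FLT3 were also among the lower markers, FLT3 under the limit in both lines at 6.75 ± 1.10 in PC-3 and 13.3 ± 2.50 in DU 145. Of the 12 tested leukocyte markers 7 were under the limit in both lines, where these counts cannot show a difference. Of 7 stromal markers tested, 4 were higher in PC-3 at an adjusted p of at most 0.05 and 0 lower, a median log2 difference of 1.01. This count too is to be read beside the 67.4%, and 5 of the 7 were under the limit in both lines. The collagens COL5A2 and COL5A1 were DEGs higher in PC-3, COL5A1 at 79.6 and 79.2 in PC-3 and 15.8, 14.8 and 17.3 in DU 145. COL1A1, the defining collagen of fibroblasts, was also called higher but stayed under the limit. It had 25.8 and 24.9 in PC-3 and 8.41, 10.2 and 14.4 in DU 145.

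Most of the measured panel differed between the lines. Of 682 genes tested with edgeR, 460 (67.4%) had an adjusted p of at most 0.05, 247 higher and 213 lower in PC-3. A differentially expressed gene (DEG) was one that also differed by at least 2-fold and was above the background limit in the line where it was higher. There were 205 DEGs, 30.1% of the genes tested, with 120 (17.6%) higher and 85 (12.5%) lower in PC-3. Counts of DEGs in a gene list below are to be read beside these shares. The samples of the 2 lines overlapped for 0 of the 205, which the DEG conditions nearly fix in advance. Samples could also lie apart for a gene that was not called, such as CAPN2. In bulk RNA, fewer expressing cells and less RNA per cell cannot be told apart. In 26 DEGs PC-3 was higher by at least 10-fold, and in 13 it was lower by at least 10-fold. The median log2 difference over all genes tested was 0.05.

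How far the balance leans to one side depended on the scaling. With the 10 housekeeping genes that were most stable over the controls, all log2 differences moved up by 0.26 and the DEGs became 160 higher and 55 lower in PC-3, of which 175 were shared with the 205. Many differences were between a measured gene and background: DU 145 was under its limit for 44 of the 120 higher DEGs and PC-3 under its limit for 27 of the 85 lower DEGs. For these a fold is given as a lower bound, the mean of the higher line over the background limit of the other.

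**Figure D1:**
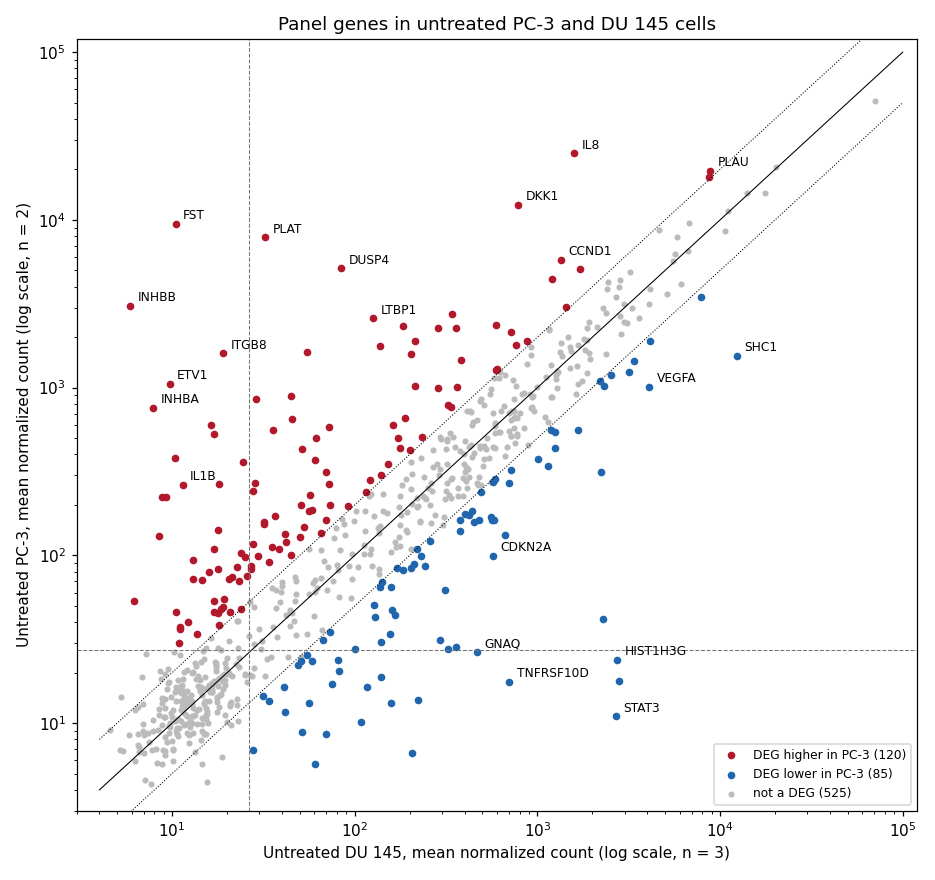
Mean normalized counts of the panel genes other than housekeeping genes in untreated PC-3 (vertical, n = 2) and untreated DU 145 (horizontal, n = 3), both on log scales, with equality (solid), 2-fold differences (dotted) and the background limits (dashed). The 120 DEGs higher in PC-3 include FST, INHBB and PLAT near or under the DU 145 limit, and the 85 lower DEGs include STAT3 and HIST1H3G under the PC-3 limit.

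The lower end of the comparison was led by genes that PC-3 hardly expressed. STAT3, the transcription factor that carries IL-6 family signals to the nucleus, had 14 and 7.97 normalized counts in PC-3 and 2674, 2691 and 2666 in DU 145. This was a drop to background of at least 98.1-fold (fitted log2 difference -8.07 ± 0.086 SE, adjusted p = 1.2e-16). HIST1H3G, 1 of the clustered histone H3 genes, had 26.9 and 20.9 in PC-3 and 2698, 2725 and 2748 in DU 145, at least 99.8-fold lower in PC-3.

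The histone genes close to HIST1H3G in sequence did not share its difference. HIST1H3B had 20554 ± 266 normalized counts in PC-3 and 20301 ± 253 in DU 145, and HIST1H3H had 14497 ± 347 in PC-3 and 13988 ± 794 in DU 145, with overlapping samples and adjusted p of 0.49 and 0.27. Both were higher in PC-3 by 0.28 and 0.31 on the log2 scale with the 10 most stable housekeeping genes. H3F3C was a DEG at 17981 ± 726 in PC-3 and 8743 ± 199 in DU 145, 2.06-fold, and fell below 2-fold with 3 of the other scalings and without PC-3 replicates 2 and 3. The H3 transcripts are near-identical in places, so a probe may read more than 1 of them.

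The list of RB pathway genes, CDK inhibitors and related tumour suppressors held 17 tested members, 2 DEGs higher and 4 lower in PC-3, a median log2 difference of -0.09 beside 0.05 for all genes. CDKN2A, which encodes the CDK4/6 inhibitor p16 and ARF, had 100 and 98.6 in PC-3 and 561, 563 and 580 in DU 145, and fell 5.72-fold in PC-3 (adjusted p = 1.9e-12). Its neighbour CDKN2B, encoding p15, went the other way by a small amount, with 292 ± 4.75 in PC-3 and 239 ± 6.50 in DU 145. CDKN1A, which encodes the CDK inhibitor p21, had 132 and 148 in PC-3 and 384, 376 and 372 in DU 145. GADD45B, a stress sensor, had 154 and 170 in PC-3 and 519, 577 and 592 in DU 145. Both fell in PC-3, 2.69-fold and 3.47-fold. GADD45A, a relative of GADD45B, was instead 1.75-fold higher in PC-3 at 977 ± 11 in PC-3 and 559 ± 13.3 in DU 145, and MDM2, a ubiquitin ligase, had 1247 ± 37.3 in PC-3 and 1296 ± 21.3 in DU 145 (adjusted p = 0.26).

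RB1 was read well above background in both lines, at 662 and 670 in PC-3 and 719, 780 and 752 in DU 145. The log2 difference of -0.17 (adjusted p = 0.0061) turned to 0.10 with the 10 most stable housekeeping genes (adjusted p = 0.075), so its direction was not settled. E2F1, the transcription factor that RB1 restrains, had 507 ± 16.9 in PC-3 and 294 ± 7.73 in DU 145, and its partner TFDP1 had 3855 ± 149 in PC-3 and 2418 ± 121 in DU 145, both higher in PC-3 by less than 2-fold. The 2 higher DEGs of the list were the inhibitors CDKN1C, encoding p57, with 151 and 117 in PC-3 and 31.5, 42.6 and 51.0 in DU 145, and CDKN2D, encoding p19, with 141 and 116 in PC-3 and 58.9, 51.8 and 40.4 in DU 145.

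**Figure D2:**
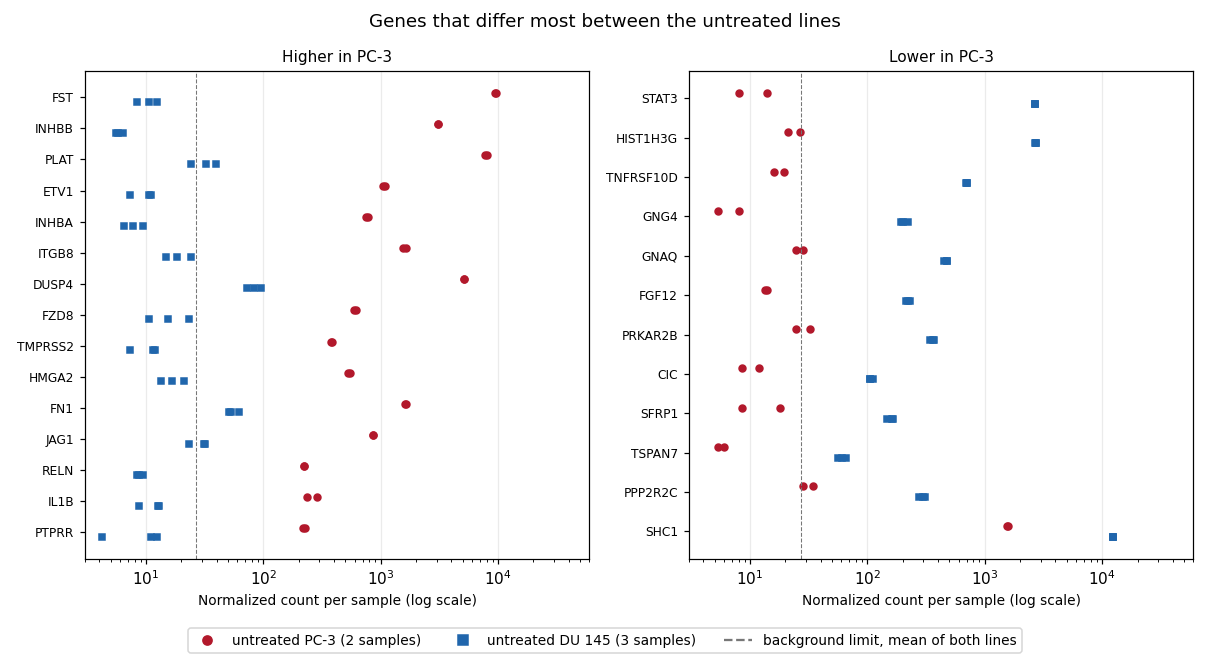
Normalized counts on a log scale in each untreated PC-3 sample (circles, 2 samples) and DU 145 sample (squares, 3 samples) for DEGs among the 15 with the largest log2 difference in each direction, with the background limit dashed. Rows were taken from DEGs whose samples do not overlap between the lines, so circles and squares lie apart by that choice. They run from FST at 9422 and 9609 in PC-3 down to SHC1 at 1534 and 1562 in PC-3 against 12308 to 12461 in DU 145.

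At the upper end, the genes of the activin system held 3 of the 5 largest differences. Activins are dimers of inhibin beta subunits and act through TGF-beta type receptors, and follistatin binds them outside the cell and blocks them. FST, follistatin, had 9422 and 9609 normalized counts in PC-3 against 10.5, 8.33 and 12.5 in DU 145, at least 359-fold higher (fitted log2 difference 9.82 ± 0.061 SE, adjusted p = 2.1e-18). INHBB, the beta B subunit, had 3073 and 3090 in PC-3 and 6.31, 5.55 and 5.77 in DU 145, at least 116-fold higher. INHBA, the beta A subunit, had 771 and 745 in PC-3 and 9.46, 6.48 and 7.69 in DU 145, at least 28.6-fold higher. All 3 were at background in every DU 145 sample, so the ligand subunits and their antagonist were read together in 1 line and in neither form in the other. The receptors differed far less: ACVR2A had 171 ± 7.95 in PC-3 and 128 ± 19.6 in DU 145, ACVR1B had 85.2 ± 4.91 in PC-3 and 105 ± 12.6 in DU 145, and ACVR1C was at background in both.

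The promoter of FST, the gene with the largest difference, is shown from 250 bases before to 50 bases after its start (RefSeq, GRCh38.p14, chr5:53480379-53480678, plus strand, 5′ to 3′), with capitals on a match to TGANTCA, the core that AP-1 dimers of FOS and JUN proteins bind.
FST promoter: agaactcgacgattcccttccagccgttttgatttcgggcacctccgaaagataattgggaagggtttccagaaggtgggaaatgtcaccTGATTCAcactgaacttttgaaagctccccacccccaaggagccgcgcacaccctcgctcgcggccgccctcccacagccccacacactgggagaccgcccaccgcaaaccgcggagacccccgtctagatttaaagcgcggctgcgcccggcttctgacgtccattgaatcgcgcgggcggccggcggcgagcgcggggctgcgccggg

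The match lay 160 bases before the start. Either strand was searched, and 7.71% of all 35116 promoters in the RefSeq table hold such a match; 11 of the 15 genes with the largest rise had a promoter in the table, and FST was the 1 with it. A match of letters is a description of the window and was not tested for binding.

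In the list of TGF-beta, BMP and activin genes as a whole, 9 of 30 tested members were DEGs higher and 3 were DEGs lower in PC-3, a median log2 difference of 0.19. LTBP1, which holds latent TGF-beta in the matrix, had 2634 and 2533 in PC-3 and 127, 130 and 119 in DU 145, 20.6-fold higher (adjusted p = 3.7e-16). THBS1, thrombospondin 1, a matrix protein that can activate latent TGF-beta, had 2272 ± 26.2 in PC-3 and 356 ± 35.3 in DU 145, 6.38-fold higher. The ligand TGFB2 was 1.98-fold higher, just short of the DEG threshold, at 1141 ± 2.40 in PC-3 and 577 ± 9.75 in DU 145, while TGFB1 had 592 ± 8.53 in PC-3 and 584 ± 9.09 in DU 145 and was not called (adjusted p = 0.81). On the BMP side the antagonist NOG, noggin, rose 3.30-fold and the receptor BMPR1B rose 4.22-fold in PC-3. The signal transducer SMAD9 fell to 64.5 ± 4.58 in PC-3 against 138 ± 5.72 in DU 145, although SMAD9 lost its DEG call with the 10 most stable housekeeping genes. The ligands BMP6 and BMP7 were at background in PC-3 and low in DU 145, at 33.9 ± 6.89 for BMP6 and 41.3 ± 7.05 for BMP7. They were at least 1.24-fold and 1.51-fold lower in PC-3. The ligand BMP4 was instead 1.81-fold higher, at 184 ± 18.6 in PC-3 and 102 ± 4.87 in DU 145. ID1, a BMP target, had 5705 ± 36.2 in PC-3 and 5519 ± 38.5 in DU 145 (adjusted p = 0.10).

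Of 4 tested plasminogen activators and metalloproteinases 2 were DEGs higher in PC-3 and 0 were lower. Plasminogen activators turn plasminogen into plasmin, a protease that degrades matrix. PLAT, the tissue-type activator, had 8078 and 7703 normalized counts in PC-3 against 24.2, 39.8 and 32.7 in DU 145, 245-fold higher on the means (log2 difference 7.91 ± 0.067 SE, adjusted p = 1.9e-17). The DU 145 samples lay around the limit, so this line had next to none. PLAU, the urokinase-type activator, was read strongly in both lines and less unequally, at 19608 and 19629 in PC-3 and 8700, 9116 and 8591 in DU 145, 2.23-fold higher (adjusted p = 2.6e-13).

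Of 11 integrin subunits 5 were DEGs higher and 1 was a DEG lower in PC-3, with a median log2 difference of 0.83. Integrins are alpha-beta dimers that tie cells to the matrix. ITGB8, a beta subunit that pairs with alpha V, had 1547 and 1652 in PC-3 and 14.7, 18.5 and 24.0 in DU 145, at least 60.3-fold higher. ITGB4 and ITGA6, which form the laminin receptor of epithelia, had 2714 and 2789 for ITGB4 in PC-3 against 334, 356 and 338 in DU 145, and 3016 ± 50.1 for ITGA6 in PC-3 against 1441 ± 28.7 in DU 145. ITGB4 rose 8.03-fold and ITGA6 2.09-fold, and the ITGA6 call was lost with scaling by the positive probes or by TMM. ITGA2, the alpha subunit of a collagen receptor, had 2229 and 2322 in PC-3 and 261, 279 and 313 in DU 145, 8.01-fold higher. ITGB3, which pairs with alpha V or the platelet alpha IIb, went the other way, with 20.4 and 13.9 in PC-3 and 71.5, 74.0 and 80.8 in DU 145, at least 2.76-fold lower. The 2 samples of PC-3 were under the limit for this subunit and the 3 of DU 145 above it.

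Matrix proteins followed with 8 of 25 tested members higher and 2 lower as DEGs, a median of 0.67 on the log2 scale. FN1, fibronectin, had 1601 and 1654 in PC-3 and 50.4, 52.7 and 61.6 in DU 145, 29.6-fold higher (adjusted p = 1.8e-15). COL5A2, a chain of fibrillar collagen, had 907 and 876 in PC-3 and 36.8, 45.3 and 51.9 in DU 145, 20.0-fold higher, and COL4A5, a chain of basement membrane collagen, was 14.3-fold higher. RELN, reelin, a secreted glycoprotein best known from the brain, had 221 and 222 in PC-3 and 9.46, 8.33 and 8.66 in DU 145. Chains of the adhesive laminin of epithelial basement membrane were higher in PC-3 by unequal amounts, 3.84-fold for LAMA3 and 1.16-fold for LAMB3. The 2 lower DEGs were TNC, tenascin C, at 64.7 ± 1.30 in PC-3 and 158 ± 21.6 in DU 145, and LAMA1, a laminin alpha chain of embryonic basement membrane, at background in PC-3. The stromal marker sums given above move with this group through COL5A2, and their part in it was not tested.

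**Figure D3:**
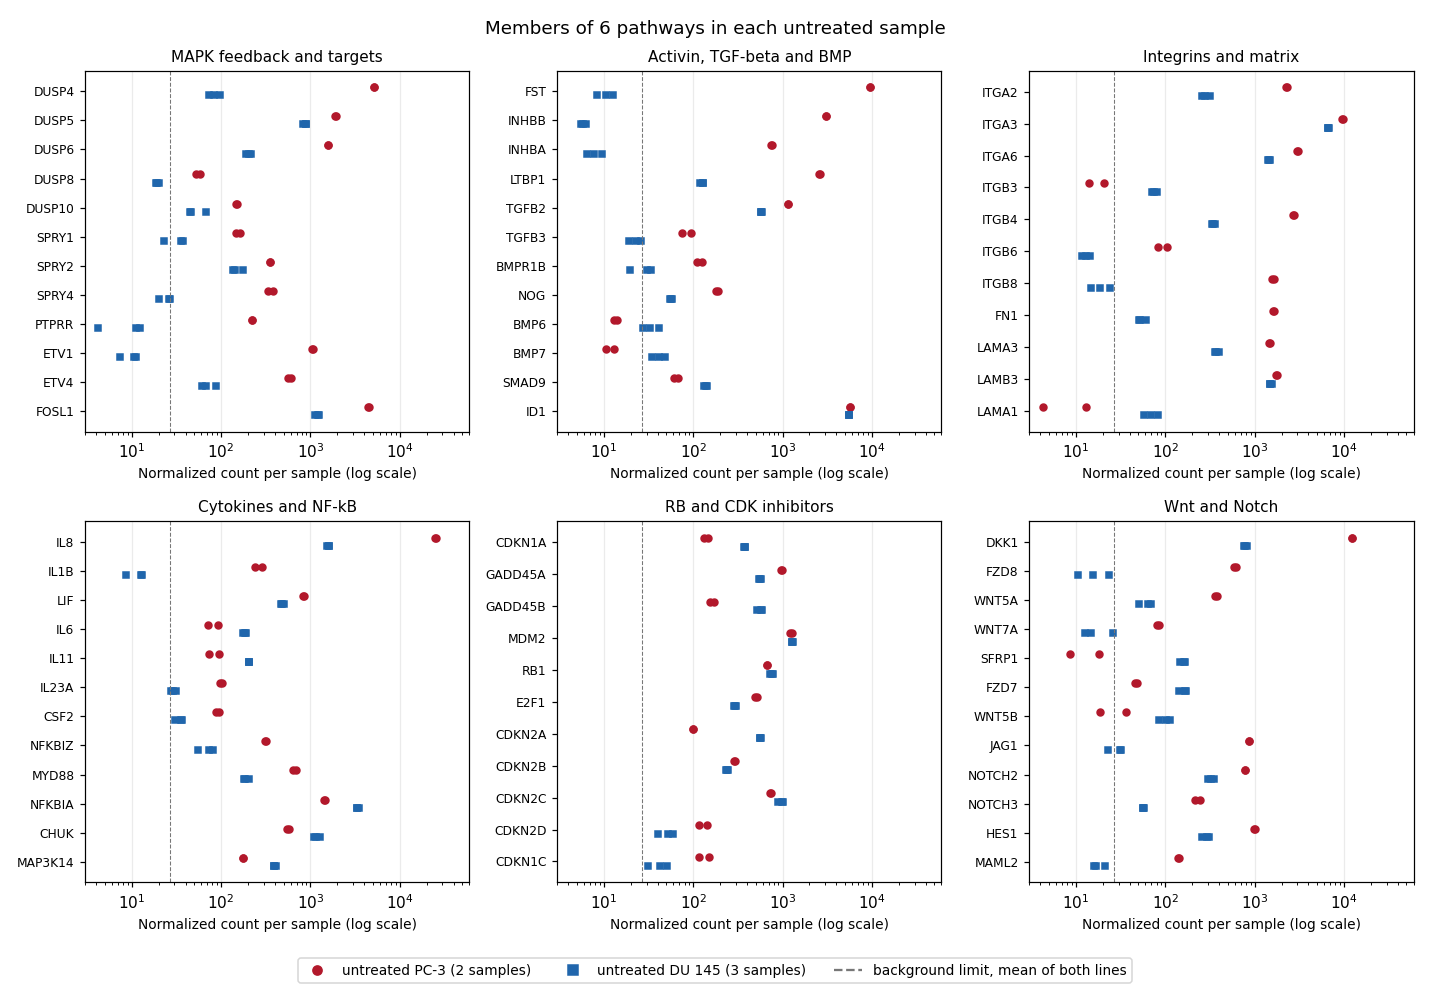
Normalized counts on a log scale in each untreated PC-3 sample (circles, 2 samples) and DU 145 sample (squares, 3 samples) for members of 6 pathways, chosen after their values were seen, with the background limit dashed. The DUSP, Sprouty and PTPRR genes in the first panel all lie higher in PC-3, whereas the cytokine and cell cycle inhibitor panels hold genes on both sides, such as IL8 and IL6.

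Genes of the DUSP, Sprouty and PTPRR group, which restrain MAPK signalling, were higher in PC-3 in all but 1 case. DUSP phosphatases and PTPRR remove phosphate from MAP kinases, Sprouty proteins act upstream of them, and several are induced by the ERK pathway they restrain. Of the 10 such genes on the panel, a family grouped after the values were seen, 9 were DEGs higher in PC-3 and 0 were lower, under every scaling tried. DUSP4 had 5157 and 5116 normalized counts in PC-3 against 83.0, 73.1 and 96.2 in DU 145, 61.1-fold higher (log2 difference 5.93 ± 0.054 SE, adjusted p = 2.9e-17). DUSP6, specific for ERK, had 1583 and 1584 in PC-3 and 205, 216 and 190 in DU 145, 7.78-fold higher. SPRY4 had 380 and 338 in PC-3 and 26.3, 26.8 and 20.2 in DU 145, at least 13.5-fold higher. In each of these the lowest PC-3 sample was far above the highest DU 145 sample. DUSP5, DUSP10, SPRY1 and SPRY2 rose between 2.19-fold (DUSP5) and 4.83-fold (SPRY1). DUSP8 was under the limit in DU 145, at 20.0, 18.5 and 19.2 against 58.1 and 51.8 in PC-3, at least 2.07-fold higher. The member outside this pattern was DUSP2, at 12.9 and 13.9 in PC-3 and 11.6, 10.2 and 14.4 in DU 145, under the limit throughout.

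Transcription factor genes downstream of the same pathway differed in both directions, and those named here were chosen after their values were seen. ETV1, an ETS factor that is also rearranged in prostate cancer, had 1038 and 1077 in PC-3 and 7.36, 11.1 and 10.6 in DU 145, at least 39.9-fold higher. ETV4, of the same ETS subgroup, had 599 and 559 in PC-3 and 61, 68.5 and 86.6 in DU 145, 8.04-fold higher. FOSL1, the AP-1 subunit FRA1, had 4509 and 4436 in PC-3 and 1127, 1223 and 1243 in DU 145, 3.73-fold higher. The immediate-early AP-1 subunits FOS and JUN were instead lower, FOS at 114 ± 8.09 in PC-3 and 177 ± 9.80 in DU 145, and JUN at 217 ± 22.7 in PC-3 and 312 ± 45.9 in DU 145, JUN without a call when the 10 most stable housekeeping genes set the scale. ETS2, another ETS factor, was a DEG lower, 2.13-fold, at 1194 ± 22.2 in PC-3 and 2541 ± 54.1 in DU 145, and fell below 2-fold with that set.

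Among the kinases, MAPK3, which encodes ERK1, was lower in PC-3 at 517 ± 24.3 against 715 ± 12.8 in DU 145, and MAP2K1, encoding MEK1, was lower at 1490 ± 11 in PC-3 against 1944 ± 42.6 in DU 145. MAPK8, the stress kinase JNK1, had 341 and 343 in PC-3 and 1108, 1160 and 1174 in DU 145, 3.36-fold lower (adjusted p = 2.3e-12). In the whole list of 44 MAPK genes 11 were DEGs higher, 9 of them the brakes above, and 2 were lower, with a median log2 difference of 0.16.

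Upstream, RAS genes and their adaptors differed in both directions. NRAS had 81.7 and 96.1 normalized counts in PC-3 and 198, 201 and 236 in DU 145, 2.38-fold lower and below 2-fold with the 10 most stable housekeeping genes. HRAS was 1.36-fold higher at 439 and 427 in PC-3 and 308, 360 and 285 in DU 145. SHC1, the adaptor that links activated receptors to GRB2 and RAS, had 1534 and 1562 in PC-3 and 12308, 12309 and 12461 in DU 145, 7.98-fold lower (adjusted p = 2.9e-17). Its relative SHC4 showed the reverse, with 252 and 280 in PC-3 and 12.6, 16.7 and 25 in DU 145, at least 10-fold higher. NF1, a GTPase-activating protein that switches RAS off, was 2.29-fold lower at 542 ± 16.1 in PC-3 and 1242 ± 10.3 in DU 145, and like NRAS below 2-fold with that set.

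Heterotrimeric G protein and cAMP genes were among the 15 largest differences on the lower side. GNAQ, the alpha q subunit, had 24.7 and 28.4 in PC-3 and 475, 473 and 448 in DU 145, at least 17.0-fold lower. GNG4, a gamma subunit, had 5.38 and 7.97 in PC-3 and 201, 192 and 221 in DU 145, at least 7.49-fold lower. PRKAR2B, a regulatory subunit of protein kinase A, had 24.7 and 32.4 in PC-3 and 370, 343 and 364 in DU 145, 12.6-fold lower. In PC-3 all 3 lay around or under the limit. RAC2, a small GTPase best known from blood cells, had 440 and 426 in PC-3 and 47.3, 50 and 57.7 in DU 145, 8.38-fold higher. Over the 39 tested RAS genes 4 were DEGs higher and 8 lower, a median log2 difference of -0.15. With the 10 most stable housekeeping genes this turned to 7 higher and 3 lower.

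Cytokines made by the cells were led by IL8. IL8, also named CXCL8, attracts neutrophils and promotes vessel growth, and it had 25311 and 24696 normalized counts in PC-3 against 1623, 1610 and 1544 in DU 145. It was 15.7-fold higher in PC-3 (log2 difference 3.97 ± 0.028 SE, adjusted p = 3.8e-18) and far above the limit in both lines. IL1B, the inflammatory cytokine interleukin 1 beta, had 237 and 289 in PC-3 and 12.6, 13 and 8.66 in DU 145, at least 9.91-fold higher. IL6 and IL11, cytokines that signal through gp130 to STAT3, went the other way: IL6 had 92.5 and 71.7 in PC-3 and 176, 187 and 188 in DU 145, and IL11 had 93.5 and 73.7 in PC-3 and 205, 203 and 204 in DU 145. They were 2.23-fold and 2.44-fold lower, and IL6 lost its DEG call with the 10 most stable housekeeping genes and without PC-3 replicates 2 and 3. LIF, of the same cytokine family, was 1.71-fold higher at 829 ± 11.6 in PC-3 and 484 ± 16.7 in DU 145. Of 26 tested members of the list, which also holds both chains IL20RA and IL20RB of a receptor, 7 were DEGs higher and 3 lower.

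The IL8 promoter is shown because its AP-1 and NF-kB elements are a textbook case and genes of both pathways differed here (RefSeq, GRCh38.p14, chr4:73740319-73740618, plus strand, 5′ to 3′). Capitals mark matches to TGANTCA and to GGANTTTCC, a core that NF-kB dimers bind.
IL8 promoter: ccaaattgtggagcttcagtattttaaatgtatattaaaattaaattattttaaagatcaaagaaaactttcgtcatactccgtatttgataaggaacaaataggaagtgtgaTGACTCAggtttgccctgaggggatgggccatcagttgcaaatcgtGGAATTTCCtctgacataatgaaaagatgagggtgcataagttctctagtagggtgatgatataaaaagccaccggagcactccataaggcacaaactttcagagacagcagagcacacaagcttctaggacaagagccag

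The AP-1 match lay 137 bases and the NF-kB match 91 bases before the start. A match to GGANTTTCC on either strand is found in 1.64% of the 35116 promoters. Whether either site was in use was not measured.

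Of 16 tested NF-kB genes 2 were DEGs higher and 5 lower, a median log2 difference of -0.60, while with the 10 most stable housekeeping genes the lower DEGs were 1 in place of 5 and the median was -0.33. NFKBIA, the inhibitor IkB alpha that NF-kB itself induces, had 1432 and 1445 in PC-3 and 3493, 3355 and 3277 in DU 145, 2.35-fold lower. CHUK, encoding the kinase IKK alpha, and MAP3K14, its activator NIK, were 2.11-fold and 2.28-fold lower. These 3 are the calls that the other housekeeping set took below 2-fold, together with BIRC3. NFKBIZ, an inducible nuclear cofactor, had 318 and 308 in PC-3 and 72.5, 54.6 and 81.8 in DU 145, 4.5-fold higher. MYD88, the adaptor of Toll-like and IL-1 receptors, had 685 and 631 in PC-3 and 179, 184 and 204 in DU 145, 3.48-fold higher. RELA, the p65 subunit, was close in both lines at 435 ± 0.797 in PC-3 and 482 ± 32.8 in DU 145.

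Of the 13 JAK, STAT and SOCS genes tested, 3 were DEGs higher and 2, STAT3 and STAT4, lower in PC-3. These were 23.1% and 15.4%, beside 17.6% higher and 12.5% lower of all genes tested. The higher DEGs were 1 with TMM or positive probe scaling and 2 with median-of-ratios scaling. STAT4 had 26.9 and 23.9 in PC-3 and 54.6, 50.9 and 58.7 in DU 145, and was no longer a DEG with the 10 most stable housekeeping genes. JAK2, a kinase bound to cytokine receptors, had 431 and 414 in PC-3 and 219, 185 and 201 in DU 145, a 2.10-fold rise that fell below 2-fold when positive probes or TMM set the scale. SOCS1, a feedback inhibitor of JAKs, had 92.5 and 73.7 in PC-3 and 28.4, 26.8 and 26.0 in DU 145, 3.07-fold higher. Among receptors, IL7R and IL13RA2 rose, at least 4.11-fold and 2.69-fold, and the leptin receptor LEPR fell at least 4.27-fold, to 19.4 and 13.4 in PC-3 against 115, 108 and 127 in DU 145.

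Among 24 tested Wnt ligands, receptors and antagonists, 4 were DEGs higher and 4 lower in PC-3. This was 16.7% each way, near the shares of all genes tested, 17.6% higher and 12.5% lower. DKK1, a secreted antagonist that blocks the LRP co-receptors and is studied in bone metastasis, had 12321 and 12214 normalized counts in PC-3 against 757, 816 and 783 in DU 145, 15.6-fold higher (adjusted p = 1.1e-17). SFRP1, an antagonist that binds Wnt ligands, had 8.60 and 17.9 in PC-3 and 146, 163 and 164 in DU 145, at least 5.78-fold lower. Each line thus had a different antagonist on its high side. FZD8, a Frizzled receptor, had 589 and 616 in PC-3 and 10.5, 23.1 and 15.4 in DU 145, at least 22.7-fold higher, and FZD7 was 3.38-fold lower at 47.4 ± 1.46 in PC-3 and 160 ± 15.3 in DU 145. WNT5A, a ligand of the beta-catenin-independent branch, rose 6.08-fold, while its close relative WNT5B fell to 36.6 and 18.4 in PC-3 against 103, 85.1 and 113 in DU 145. CTNNB1, beta-catenin itself, was 1.51-fold higher at 4861 ± 117 in PC-3 and 3216 ± 81.3 in DU 145. AXIN2, a standard Wnt target, had 46.2 and 43.8 in PC-3 and was under the limit in DU 145, at 17.9, 16.7 and 19.2.

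Notch genes had 6 DEGs higher and 1 lower in PC-3 of 20 tested and a median log2 difference of 0.60. JAG1, a Notch ligand, had 862 and 858 in PC-3 and 23.1, 31.5 and 31.7 in DU 145, 29.9-fold higher (adjusted p = 2.4e-14). The ligand JAG2 had 543 ± 17.2 in PC-3 and 623 ± 6.02 in DU 145, a 1.15-fold difference whose sign turned with the 10 most stable housekeeping genes. The receptors NOTCH2 and NOTCH3 rose 2.42-fold and 4.03-fold, NOTCH2 to 780 and 786 in PC-3 against 298 to 348 in DU 145, and NOTCH3 to 216 and 243 in PC-3 against 56.4 to 57.8 in DU 145. MAML2, a coactivator of the Notch complex, rose at least 5.34-fold. HES1, a target gene of Notch, had 999 and 988 in PC-3 and 261, 294 and 306 in DU 145, 3.46-fold higher. The target HES5 was not called, at 37.3 ± 3.48 in PC-3 and 35.7 ± 5.77 in DU 145 (adjusted p = 0.89). NUMBL, a relative of the Notch inhibitor NUMB, was the lower DEG at 65.6 and 73.2 in PC-3 and 144, 138 and 143 in DU 145, a 2.04-fold fall that did not hold at 2-fold without DU 145 replicate 1, DU 145 replicate 3 or PC-3 replicate 1, or with the 10 most stable housekeeping genes.

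Growth factors and their receptors had DEGs on both sides. VEGFA, the main angiogenic ligand, had 1011 and 1006 in PC-3 and 3882, 4196 and 4213 in DU 145, 4.06-fold lower (adjusted p = 1.0e-13). VEGFC, which drives lymphatic growth, had 1001 and 1050 in PC-3 and 203, 215 and 221 in DU 145, 4.82-fold higher. The VEGF ligands were therefore inverted between the lines. The neurotrophin BDNF fell to 171 and 175 in PC-3 against 390, 444 and 425 in DU 145. FGF12 and FGF11, FGF-like proteins that stay inside the cell, and FGF2 fell as well. Of the 41 tested genes of the list, which also holds GHR and TNC, 7 were DEGs higher and 8 lower. These were 17.1% and 19.5%, beside 17.6% higher and 12.5% lower of all genes tested.

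Of 18 tested genes in the list of receptor tyrosine kinases, which also holds the cytokine receptor EPOR, 3 were DEGs higher and 3 lower in PC-3. This was 16.7% each way, near the shares of all genes tested, 17.6% higher and 12.5% lower. MET, the receptor of hepatocyte growth factor, had 5143 and 5092 in PC-3 and 1614, 1752 and 1743 in DU 145, 3.01-fold higher (adjusted p = 1.3e-13). EPHA2, an ephrin receptor, had 2385 and 2371 in PC-3 and 592, 621 and 569 in DU 145, 4-fold higher. FGFR1 and IGF1R were lower, FGFR1 with 156 and 171 in PC-3 and 587, 561 and 592 in DU 145, and IGF1R with 165 and 153 in PC-3 and 431, 478 and 437 in DU 145. EGFR hardly differed, at 1702 and 1597 in PC-3 and 1581, 1528 and 1490 in DU 145, a log2 difference of 0.10 (adjusted p = 0.044) that was not called under DESeq2 (adjusted p = 0.11) or with the TMM, positive probe and median-of-ratios scalings.

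The list of PI3K, AKT and mTOR genes had 3 DEGs higher and 6 lower of 24 tested with a median of -0.06. PIK3R1, the p85 alpha regulatory subunit, had 43.0 and 43.3 in PC-3 and 118, 136 and 134 in DU 145, 2.99-fold lower, and the catalytic subunit PIK3CB was 2.32-fold lower, below 2-fold with the 10 most stable housekeeping genes. PIK3CA, the p110 alpha subunit, had 612 ± 19.2 in PC-3 and 585 ± 12 in DU 145 (adjusted p = 0.19), and AKT1 was 1.17-fold higher in PC-3. DDIT4, a stress-induced inhibitor of mTORC1, had 67.7 and 56.8 in PC-3 and 291, 324 and 323 in DU 145, 5.02-fold lower. IRS1, the docking protein of the insulin and IGF1 receptors, had 474 and 404 in PC-3 and 168, 180 and 185 in DU 145, 2.47-fold higher. PPP2R2C, a regulatory subunit of the phosphatase PP2A that opposes AKT, was 9.38-fold lower, at 34.4 and 28.4 in PC-3 and 275, 308 and 300 in DU 145, and the catalytic subunit PPP2CB was 2.56-fold lower at 1237 ± 6.44 in PC-3 and 3165 ± 6.76 in DU 145.

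**Figure D4:**
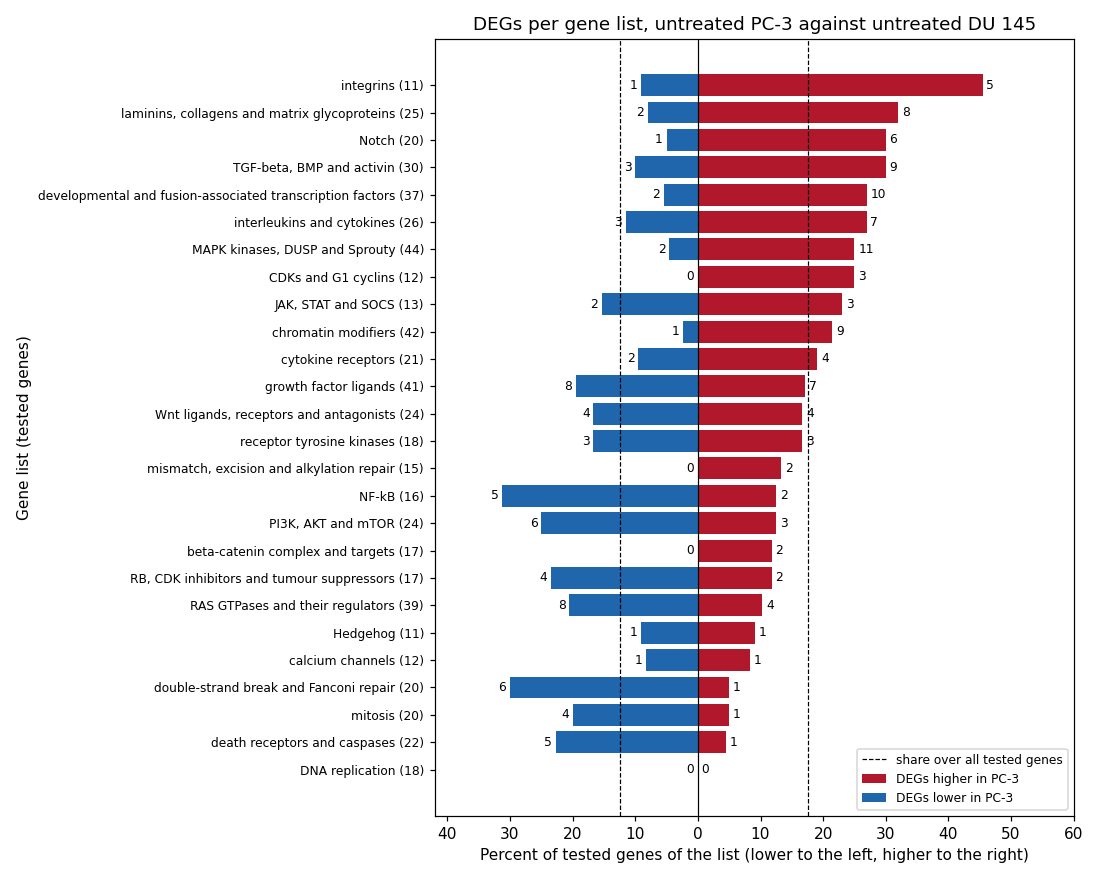
Percent of the tested genes of each list that were DEGs higher in PC-3 (to the right) or lower in PC-3 (to the left), with the number of DEGs at each bar, the number of tested genes in parentheses and the share over all tested genes dashed (17.6% higher and 12.5% lower). Lists with at least 10 tested genes are drawn. Integrins had 5 higher of 11, and NF-kB had 5 lower of 16 with the scaling used here.

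Cell cycle genes differed in both directions. CCND1, cyclin D1, which drives CDK4 and CDK6, had 5711 and 5823 normalized counts in PC-3 against 1279, 1345 and 1416 in DU 145, 4.28-fold higher (adjusted p = 1.3e-14). CDK6 had 131 and 141 in PC-3 and 73.6, 62.9 and 60.6 in DU 145, 2.07-fold higher, and CDC25A, the phosphatase that activates CDK2, had 460 and 562 in PC-3 and 245, 239 and 220 in DU 145, 2.18-fold higher. CDK6 fell below 2-fold with the positive probes and CDC25A without PC-3 replicates 2 and 3. CDK4 and CCNE1 did not separate, CDK4 with 918 ± 18.9 in PC-3 and 911 ± 20.8 in DU 145. The list of 12 genes had 3 DEGs higher and 0 lower, and MYC was 1.24-fold higher at 1637 ± 29.8 in PC-3 and 1322 ± 50.2 in DU 145.

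CCNB1 and CCNA2, the cyclins of mitotic entry and S phase, were 2.28-fold and 2.20-fold lower, CCNB1 with 3376 and 3520 in PC-3 and 7918, 7902 and 7817 in DU 145, and CCNA2 with 1935 and 1845 in PC-3 and 4121, 4216 and 4121 in DU 145. Over 20 mitosis genes, 1 was a DEG higher (STAG2, a cohesin subunit) and 4 were lower, and at adjusted p alone 3 were higher and 12 lower. This imbalance did not hold with the 10 most stable housekeeping genes, where 7 were higher and 8 lower and 1 DEG, CCNB3, was lower. DNA replication genes had no DEG among 18 tested, although 4 were higher and 9 lower at adjusted p alone and 8 higher and 6 lower with that set. MCM7, part of the replicative helicase, had 3484 ± 17.5 in PC-3 and 2687 ± 12.7 in DU 145, and MCM5 had 269 ± 29.9 in PC-3 and 467 ± 31.0 in DU 145, so members of 1 complex differed in opposite directions.

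DNA repair genes differed in both directions. ERCC6, of transcription-coupled repair, had 514 and 493 in PC-3 and 53.6, 72.2 and 58.7 in DU 145, 8.19-fold higher. MGMT, which repairs alkylated guanine, was 1.49-fold lower at 339 ± 24.5 in PC-3 and 506 ± 12.5 in DU 145. In the list of double-strand break and Fanconi genes 1 of 20 was a DEG higher and 6 were lower, with a median of -0.50, and 3 were lower with the 10 most stable housekeeping genes, where the median was -0.23. FANCG had 172 and 153 in PC-3 and 477, 476 and 491 in DU 145, 2.96-fold lower, and RAD50, of the complex that senses broken ends, had 84.9 and 87.7 in PC-3 and 241, 248 and 239 in DU 145, 2.81-fold lower. FANCB was the exception, at 186 and 189 in PC-3 and 62.0, 70.3 and 43.3 in DU 145, 3.20-fold higher.

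Receptors of the TRAIL and FAS pathway, death receptors that start apoptosis from the cell surface and decoys, were lower in PC-3. All 5 measured receptors, grouped after their values were seen, had adjusted p of at most 0.05 in that direction under each scaling tried. Of all genes tested, 67.4% passed this cut in either direction. Of the 5 receptors 3 were DEGs, and 2 with the 10 most stable housekeeping genes. TNFRSF10D, a decoy receptor that binds TRAIL without a complete death domain, had 19.4 and 15.9 in PC-3 and 706, 686 and 706 in DU 145, at least 25.6-fold lower (adjusted p = 3.1e-14). The decoy TNFRSF10C was at least 3.01-fold lower. The death receptors TNFRSF10A and TNFRSF10B, DR4 and DR5, differed less, TNFRSF10A with 105 ± 1.27 in PC-3 and 158 ± 15.2 in DU 145, and TNFRSF10B with 169 ± 20.9 in PC-3 and 309 ± 31.9 in DU 145. FAS was 2.01-fold lower, which fell below 2-fold with the 10 most stable housekeeping genes and without PC-3 replicates 2 and 3. TNFSF10, the ligand TRAIL, was just above the limit in PC-3 at 35.5 and 36.9 and under it in DU 145 at 10.5, 8.33 and 14.4.

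Inside the cell, BID, which links death receptors to mitochondria, had 196 and 145 in PC-3 and 585, 542 and 550 in DU 145, 3.28-fold lower (adjusted p = 1.4e-09). BCL2, the inhibitor of mitochondrial apoptosis, had 49.5 and 30.4 in PC-3 and 15.8, 9.25 and 11.5 in DU 145, at least 1.51-fold higher and low in both. Its relative BCL2L1 was 1.92-fold higher at 2224 ± 34.1 in PC-3 and 1160 ± 46.6 in DU 145. BAX had 706 ± 15.4 in PC-3 and 703 ± 13.4 in DU 145, with overlapping samples.

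Chromatin genes had 9 DEGs higher (21.4%, near the 17.6% of all genes tested) and 1 lower in PC-3 of 42 tested, with a median log2 difference of 0.17. SMARCA4, the ATPase BRG1 of the SWI/SNF remodeller, had 2351 and 2292 in PC-3 and 184, 173 and 194 in DU 145, 12.6-fold higher (adjusted p = 1.5e-15). HMGA2, an architectural protein of embryonic cells, had 542 and 523 in PC-3 and 21.0, 16.7 and 13.5 in DU 145, at least 20.1-fold higher, and its relative HMGA1 was 2.16-fold higher. HDAC1, HDAC5 and HDAC11, histone deacetylases, rose between 2.34-fold (HDAC5) and 2.74-fold (HDAC11). WHSC1, the methyltransferase NSD2, was the lower DEG, 2.27-fold, at 1027 and 1006 in PC-3 and 2337, 2364 and 2207 in DU 145, and fell below 2-fold with the 10 most stable housekeeping genes.

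Developmental transcription factors included 10 DEGs higher and 2 lower in PC-3 of 37 tested, a median of 0.30. SOX9, a factor of prostate budding and progenitor cells, had 1900 and 1887 in PC-3 and 212, 217 and 213 in DU 145, 8.86-fold higher (adjusted p = 2.3e-15). PPARG, a nuclear receptor of lipid metabolism, had 1784 and 1759 in PC-3 and 126, 136 and 150 in DU 145, 12.9-fold higher. HOXA9, of the HOXA patterning cluster, had 548 and 563 in PC-3 and 34.7, 37.0 and 35.6 in DU 145, 15.5-fold higher, and HOXA10 and HOXA11 were 1.76-fold and 2.82-fold higher. PBX3, a cofactor of HOX proteins, was lower, with 126 and 139 in PC-3 and 637, 682 and 668 in DU 145. In Hedgehog signalling the transcription factor GLI3 was 8.77-fold higher, at 227 and 258 in PC-3 and 26.3, 28.7 and 27.9 in DU 145.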

How the data were processed

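The deposited values were raw nCounter counts per probe, whole numbers that the authors deposited with their control probes, for 770 panel genes, 6 positive and 8 negative probes. The authors normalized by housekeeping genes in nSolver for their own tests; those values were not used here. Of 12 columns the 6 untreated ones were used, mapped by title, and 0 columns were left unmapped.

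Each sample was scaled with the geometric mean of its 40 housekeeping genes. Apart from these, genes whose mean reached 10 in the 6 columns were tested with the quasi-likelihood test of edgeR 4.0.16 (R 4.3.3), PC-3 minus DU 145, with Benjamini-Hochberg adjustment across 682 genes; 48 genes fell below the filter. The DEG thresholds of 2-fold and 0.05 follow the study's methods. SDs are over the samples of a line and SEs are from the fit. On simulated data of the same size, 50 of 50 genes were recovered at each log2 change of -2, -1, 1 and 2, with 2 false calls. The changed genes were drawn only from those with a mean scaled count of at least 50, with little spread beyond counting noise. The simulation therefore does not show how well differences in lower genes are recovered. DESeq2 1.42.0, 4 other scalings, other filters and thresholds, and leaving out samples were run as alternatives.

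The genes named were the 15 DEGs of largest log2 difference in each direction without overlap, the 5 of highest mean per line, up to 4 members of each of 36 lists of smallest adjusted p, and a fixed set of cancer genes; other names were added after their values were seen. The members and lists were chosen with earlier results of these data known. Promoters came from a RefSeq table (GRCh38.p14); 770 of 770 panel genes matched RefSeq, 754 by current symbol. Some genes are not reported here. Counts of near-identical genes such as histone H3 and HSPA1A with HSPA1B can be shared between probes. Replicate numbers recur in both lines, and deviations from the line means correlated at 0.0087, -0.065 and 0.00051 for numbers 1, 2 and 3 over 473 genes, so the numbers did not pair the samples.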

Additional observations from a re-analysis of the deposited data

How the results depend on the processing

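All 205 DEGs were also called by DESeq2, and 198 to 203 under TMM, positive probe and median-of-ratios scaling. The median log2 difference over all genes was 0.05, and -0.02 with TMM, -0.03 with the positive probes, 0.01 with median-of-ratios and 0.32 with the 10 most stable housekeeping genes. With that last set the lower DEGs were 55 in place of 85, RB1 turned to 0.10 (adjusted p = 0.075), 4 others of 154 named genes no longer had an adjusted p of at most 0.05, and of the 105 named DEGs 14 were no longer DEGs. Tested against a 2-fold change, 171 genes were called in place of 460, 105 higher and 66 lower. DEGs numbered 167 at a minimum mean of 50, 215 without the background condition, an alternative chosen after seeing the data, and 297 at 1.5-fold. Subtracting the negative probes left all 134 DEGs above the limit in both lines at 2-fold or more. Taking a similar amount from both lines widens a ratio (median log2 size 1.58 before and 1.83 after), so this was no test of these DEGs. Leaving out samples gave 201 to 210 DEGs, 418 to 447 genes changed and medians of 0.03 to 0.07; a line left with 1 sample was assumed to vary like the other. With the replicate number as a block and 6 separate samples, 465 genes changed and 204 were DEGs, all shared with the 205, and no named gene crossed an adjusted p of 0.05; the numbers do not pair the samples. In genes under the background limit, which both lines were for 172 of the tested genes, these counts cannot show a difference.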

Other observations

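The housekeeping genes of the panel did not keep 1 ratio between the lines. After scaling by their own geometric mean, their log2 differences had an SD of 0.425 over the 40 genes, 30 of them within 0.5 of 0. The lowest was C10orf76 at -0.86 and the highest was CNOT10 at 0.91. The panel genes on either side of SMARCA4 on chromosome 19, CDKN2D and the erythropoietin receptor gene EPOR, were DEGs higher in PC-3 as well, EPOR at 76.3 and 69.2 in PC-3 and 26.3, 13.9 and 21.2 in DU 145. The next panel genes outward were mixed, DNMT1 lower in PC-3 (log2 difference -0.12) and PRKACA higher (0.53). Beside FST, ITGA2 was a DEG higher in PC-3 and CCNO was not called. Neighbours were chosen after the values were seen, and copy number was not measured here.

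CIC, a repressor of ETS factor genes such as ETV1 and ETV4 that the MAPK pathway relieves, was under the limit in PC-3 at 11.8 and 8.47, against 106, 111 and 106 in DU 145, at least 3.94-fold lower. The calcineurin catalytic subunits PPP3CB and PPP3CC were called in opposite directions, PPP3CB higher with 519 and 479 in PC-3 and 186, 170 and 161 in DU 145, and PPP3CC lower, although the call of PPP3CC was lost with the 10 most stable housekeeping genes. RPS27A, the gene with the highest count in both lines, had 51454 ± 1272 in PC-3 and 70572 ± 1776 in DU 145, 1.37-fold lower.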
